A study of Mus musculus with 2 samples.

Results

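In the cells of the mouse abdominal aorta 10 genes of lysosomal proteolysis were followed. They were the cysteine cathepsins *Ctsb*, *Ctsl*, *Ctss*, *Ctsk*, *Ctsh* and *Ctsz*, the aspartic cathepsin *Ctsd*, the asparaginyl endopeptidase legumain (*Lgmn*), and the inhibitors cystatin C (*Cst3*) and stefin B (*Cstb*). They were taken by symbol and make up 10 of the 33696 genes in the count matrices. The aortas came from male C57BL/6J mice aged 5 months and were dissociated on day 28 of treatment. The Control library came from mice given saline, and the AngII+HS library from mice infused with angiotensin II from an implanted minipump, with sodium and potassium chloride in the drinking water, a model of abdominal aortic aneurysm. The series describes each library as a pool of 5 mice, while the extraction notes speak of 1 control mouse and 2 treated mice. As each condition had a single library, the conditions could not be tested against each other, and every interval below covers counting error only and not the spread between mice.

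Cathepsins are made as inactive precursors, carried to lysosomes by the mannose 6-phosphate route and activated at acid pH, and legumain helps to mature several of them. Cystatin C is secreted and stefin B stays in the cytosol, and both block cysteine cathepsins and leave the aspartic *Ctsd* alone. In the arterial wall, cathepsins that leave the cell can cleave elastin and collagen, and cathepsin S also trims the invariant chain (*Cd74*) that guards major histocompatibility complex class II molecules.

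Among the proteases, *Ctsk* and *Ctss* are neighbours in the genome. *Ctsk* (chr3:95406178-95416732, GRCm39, plus strand, 8 exons) ends 17230 bases before the start of *Ctss* (chr3:95433963-95463717, plus strand, 8 exons). Their promoters are printed because these adjacent genes were used by different cells, and that of *Ctsd* because it held the palindrome CACGTG at 2 places. RefSeq promoter windows, 8 in all, were matched for 7 of the 10 genes (not for *Ctsb*, *Ctsh* and *Cstb*), and each line runs 5′ to 3′ from 250 bases before the start site to 20 bases after it on build GRCm38.p6. Capitals mark CACGTG and the 8 letters ACTTCCTC, which read GAGGAAGT on the other strand. The *Ctsd* window is chr7:142387808-142388077 on the minus strand, the *Ctsk* window chr3:95498960-95499229 and the *Ctss* window chr3:95526536-95526805, both on the plus strand.
Ctsd: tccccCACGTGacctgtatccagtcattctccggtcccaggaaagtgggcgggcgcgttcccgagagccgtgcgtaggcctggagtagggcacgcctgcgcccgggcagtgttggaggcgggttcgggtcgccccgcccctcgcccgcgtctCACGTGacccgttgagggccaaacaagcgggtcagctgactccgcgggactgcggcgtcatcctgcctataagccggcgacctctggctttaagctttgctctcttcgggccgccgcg
Ctsk: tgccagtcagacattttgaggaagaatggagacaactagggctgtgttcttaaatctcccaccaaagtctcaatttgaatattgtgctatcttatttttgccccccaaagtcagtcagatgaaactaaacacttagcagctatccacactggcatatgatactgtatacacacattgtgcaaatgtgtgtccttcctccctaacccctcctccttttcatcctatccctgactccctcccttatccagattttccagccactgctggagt
Ctss: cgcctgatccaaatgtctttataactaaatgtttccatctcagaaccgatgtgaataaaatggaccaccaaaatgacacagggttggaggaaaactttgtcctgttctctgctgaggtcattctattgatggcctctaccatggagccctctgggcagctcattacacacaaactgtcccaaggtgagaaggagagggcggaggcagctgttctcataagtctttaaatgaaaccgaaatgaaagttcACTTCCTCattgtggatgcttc
Letters were searched over whole windows, which run on to 50 bases after the start site. CACGTG occurred in a window of 3 of the 7 genes, *Ctsd*, *Ctsl* and *Lgmn*, against 8.09% of the 27025 genes with a window. *Lgmn* has 2 windows, and the palindrome was in 1 of them. The longer TCACGTGA was found for *Ctsd* alone among the 7 and in 1.12% of all genes. GAGGAAGT, searched on both strands, was found for *Ctss* alone and in 3.69% of all genes. The *Ctsk* window held none of these. These are matches of letters and not sites of binding.

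After cell filters and removal of predicted doublets, 10269 cells of the Control library (median 7274 UMIs per cell) and 19734 cells of the AngII+HS library (median 3065.5) remained. A UMI (unique molecular identifier) marks 1 captured RNA molecule, read from its 3′ end, so counts were not scaled to gene length. Levels are given as CPM, the UMIs of a gene per 1000000 UMIs of all cells of that type in that library. Cell types were named from marker genes, and each name below stands for clusters like that type. Control held 500 macrophages, 32 dendritic cells (DCs), 99 neutrophils, 2608 fibroblasts, 5066 vascular smooth muscle cells (VSMCs) and 838 vascular endothelial cells (VECs). AngII+HS held 4524, 503, 4660, 4720, 648 and 1203 of them in the same order. 67 cell barcodes occurred in both lists. Each matrix was taken under the sample it was filed with, although the barcode list filed with each sample had as many entries as the other sample's matrix has columns. Had the matrices been exchanged and not the lists, each direction below would turn around.

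**Figure D1:**
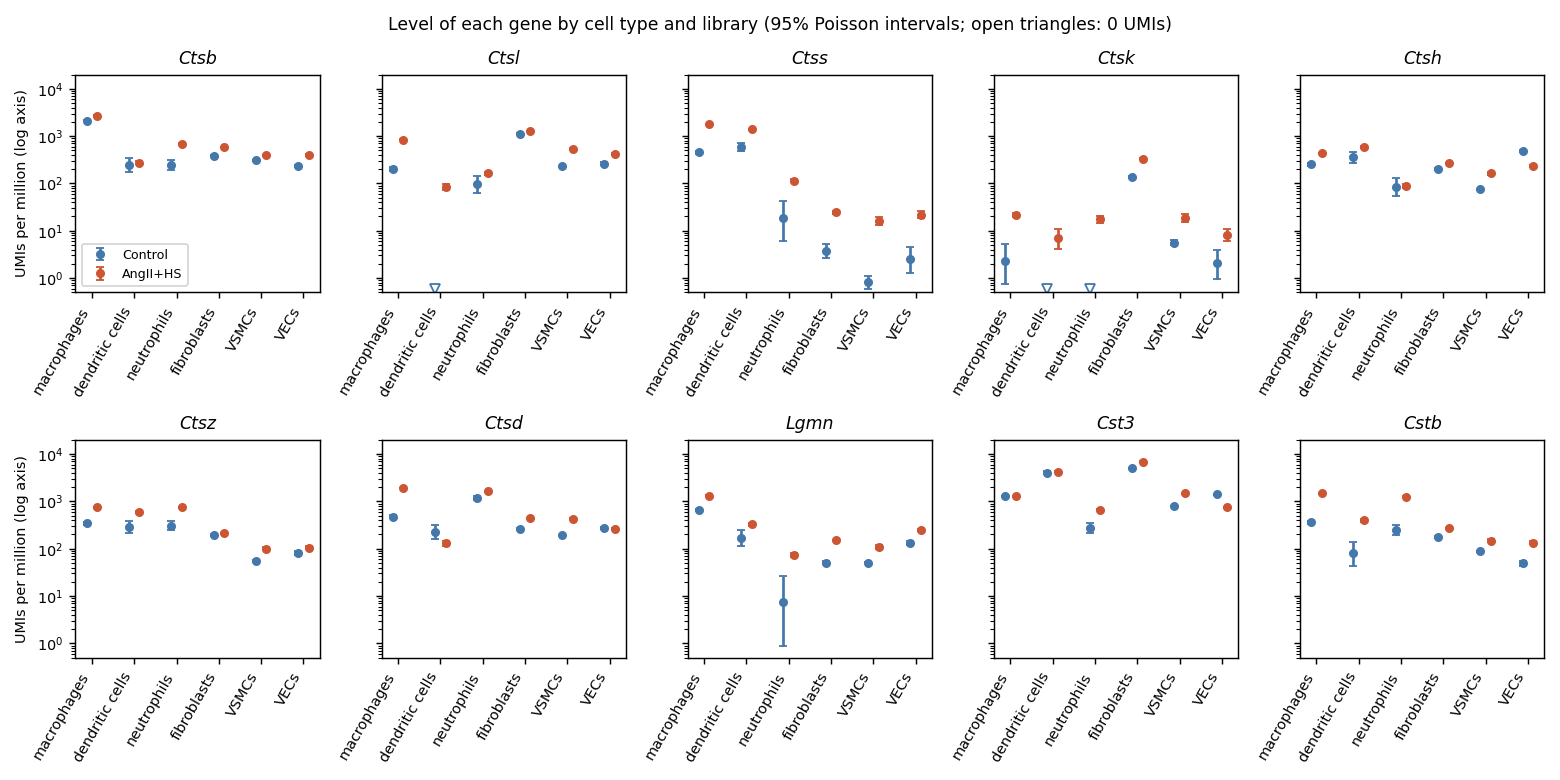
Level of each of the 10 genes (CPM, log axis) in 6 cell types of the Control library (blue) and the AngII+HS library (red), with 95% Poisson intervals and open triangles for 0 UMIs. *Ctss* was at 451 CPM or more in macrophages and DCs of either library and at 24.3 CPM or less in fibroblasts, VSMCs and VECs, whereas *Ctsk* was highest in fibroblasts.

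*Ctsb* (chr14:63358384-63383372), which can cut within proteins and also trims dipeptides from their ends, was the most abundant protease of macrophages. It stood at 2133 CPM in Control (95% interval 2072 to 2194) and 2717 CPM in AngII+HS (2694 to 2740), a log2 ratio of 0.35. Fibroblasts were next in Control at 385 CPM, and the intervals of neutrophils (250 CPM), DCs (247 CPM) and VSMCs (306 CPM) overlapped there. Macrophages thus exceeded the other 5 types in both libraries, while the step between libraries was small. In neutrophils *Ctsb* was at 250 CPM in Control and 697 CPM in AngII+HS, a log2 ratio of 1.48 (1.13 to 1.84). Among the AngII+HS myeloid clusters it was lowest in the cDC1-like cluster and reached 4682 CPM in an *Arg1* macrophage-like cluster led by *Ppbp* and *Hmox1* and 5720 CPM in 25 cells led by *Marco* and *Cd209b*. *Ctsb* overlaps *Fdft1* on the opposite strand, so that reads of the shared stretch depend on strand-aware counting.

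*Ctsl* (chr13:64507151-64518704), an endopeptidase that also degrades matrix proteins, was a fibroblast gene in Control and a fibroblast and macrophage gene in AngII+HS. Fibroblasts had 1117 CPM in Control and 1266 CPM in AngII+HS, a log2 ratio of 0.18. Macrophages had 204 CPM and 846 CPM, a log2 ratio of 2.05 (1.92 to 2.19). The intervals of both libraries lay far apart in macrophages. The highest AngII+HS level was in the *Ppbp*-led *Arg1* macrophage-like cluster, at 2037 CPM, above each fibroblast cluster. VSMCs had 234 CPM in Control and 535 CPM in AngII+HS (log2 ratio 1.19), and VECs 262 CPM and 418 CPM (0.67). No *Ctsl* UMI was found in the 32 Control DCs, where a count of 0 allows up to 19.0 CPM. The 83.3 CPM of AngII+HS DCs was at least 4.38-fold higher than that limit, but close to the 79.7 CPM of AngII+HS T and B cells (17.1 CPM in Control). This bound depends on which cells are counted as DCs, since the cDC2-like cluster, drawn from all myeloid cells, had 8 *Ctsl* UMIs in 31 Control cells (57.8 CPM) against 110 CPM in AngII+HS.

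*Ctss*, the cathepsin that stays active at neutral pH, was concentrated in macrophages and DCs. Control DCs (590 CPM, 476 to 723) and Control macrophages (451 CPM, 424 to 480) overlapped in their intervals. In AngII+HS macrophages were higher (1788 CPM) than DCs (1387 CPM), with log2 ratios to Control of 1.99 (1.89 to 2.08) and 1.23 (0.94 to 1.55). DCs thus had the higher value in Control, from 32 cells, and macrophages the higher one in AngII+HS, and neither difference was tested. An AngII+HS *Ly6c2* monocyte-like cluster led by *Ly6c2* and *Irf7* had the most *Ctss* of the myeloid clusters, 2813 CPM, and the *Gpnmb*- and *Mmp12*-led cluster followed with 2411 CPM. In fibroblasts *Ctss* was at 3.79 CPM and 24.3 CPM, in VSMCs at 0.81 CPM and 16.1 CPM, and in VECs at 2.54 CPM and 21.8 CPM. The AngII+HS levels in these 3 types were below the 31.2 CPM estimated for free RNA in that library from genes that T and B cells should lack. Their summed level of 8 macrophage markers moved with it, from 20.6 CPM to 81.9 CPM in fibroblasts, 12.1 CPM to 57.8 CPM in VSMCs and 23.3 CPM to 86.4 CPM in VECs, where 1 of the 8 was at 0 in Control, and its part in the *Ctss* values was not tested. The free RNA estimates took the median share of library level found in T and B cells, 5.90% in AngII+HS. Single genes ran from 4.18% (*Dcn*) to 22.2% (*Acta2*), so the estimates are rough.

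*Ctsk*, the collagen- and elastin-cleaving cathepsin best known from bone-resorbing osteoclasts, was a fibroblast gene in both libraries. Fibroblasts had 135 CPM in Control (128 to 142) and 333 CPM in AngII+HS (326 to 340), a log2 ratio of 1.30. All 7 fibroblast clusters with at least 20 cells in each library had more *Ctsk* in AngII+HS, with log2 ratios from 0.37 in the *G0s2*- and *Col4a3*-led cluster to 1.65 in the *Ndnf*- and *Angptl1*-led cluster. The latter also had the highest fibroblast level, 559 CPM, after 179 CPM in Control. Macrophages had 2.26 CPM in Control, from 5 UMIs, and 21.3 CPM in AngII+HS. T and B cells, which should lack the gene, had 2.14 CPM and 12.2 CPM, so the Control macrophages were at background and the AngII+HS macrophages little above it.

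*Ctsh* (chr9:89936205-89958148), an aminopeptidase, was the one protease whose highest Control level was in VECs. VECs had 484 CPM in Control (464 to 505), overlapping DCs at 362 CPM (274 to 469), and 233 CPM in AngII+HS (221 to 245), a log2 ratio of −1.06. VSMCs went the other way, with 75.4 CPM and 164 CPM (log2 ratio 1.12), and the difference between these ratios was not tested. In AngII+HS the highest types were DCs with 587 CPM and macrophages with 431 CPM. Within VECs the gene separated clusters that all lay in 1 cell type. It was at 904 CPM in Control and 700 CPM in AngII+HS in the *Ecrg4*- and *Pde3a*-led cluster, and at 880 CPM and 894 CPM (log2 ratio 0.02) in the *Klk10*- and *Pi16*-led cluster. The *Timp4*- and *Lpl*-led cluster had 6.78 CPM and 15.3 CPM. The *Mctp1*- and *Olr1*-led cluster had 240 CPM and 51.8 CPM, a log2 ratio of −2.21 (−2.76 to −1.69). High-*Ctsh* clusters made up different shares of the VECs, since the *Klk10*-led cluster held 155 Control and 55 AngII+HS cells and a cluster led by *Inhbb* and *Akap12*, with 12.6 CPM of *Ctsh* in AngII+HS, held 14 and 241.

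*Ctsz* (chr2:174267304-174280832), a carboxypeptidase, was spread over all myeloid types. In Control, macrophages (347 CPM), neutrophils (305 CPM) and DCs (292 CPM) overlapped in their intervals. In AngII+HS, neutrophils (756 CPM) and macrophages (743 CPM) overlapped, and DCs had 590 CPM. The log2 ratios were 1.10, 1.31 and 1.01 in macrophages, neutrophils and DCs, against 0.09 in fibroblasts, where the sign turned under 2 of 12 alternatives. *Ctsz* overlaps *Nelfcd* on the opposite strand.

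*Ctsd* (chr7:141929646-141941775), the aspartic cathepsin, was in Control a neutrophil gene before all, with 1189 CPM in the 99 neutrophils and 479 CPM in macrophages. In AngII+HS macrophages (1942 CPM) were above neutrophils (1648 CPM), with log2 ratios to Control of 2.02 (1.93 to 2.11) and 0.47 (0.31 to 0.64). DCs had the reverse, 228 CPM in Control and 130 CPM in AngII+HS, a log2 ratio of −0.81 (−1.31 to −0.27). The *Ppbp*-led *Arg1* macrophage-like cluster had 4046 CPM and the *Gpnmb*-led cluster 3363 CPM, whereas the cDC1-like cluster had 93.4 CPM. Myeloid clusters of 1 library therefore differed more in *Ctsd* than any of the 6 cell types did between libraries. *Ctsd* overlaps the predicted gene *Gm49369* on the same strand, so reads of the shared exons could have been split or lost.

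*Lgmn* (chr12:102359122-102414682), which cuts after asparagine, was highest in macrophages, at 653 CPM in Control and 1322 CPM in AngII+HS (log2 ratio 1.02, 0.94 to 1.10). Fibroblasts had 50.8 CPM and 151 CPM, a log2 ratio of 1.57 (1.43 to 1.71), and each of 7 fibroblast clusters passed 2-fold, with a highest log2 ratio of 1.92. VECs (131 CPM and 243 CPM) and VSMCs (50.8 CPM and 108 CPM) were also higher in AngII+HS. Neutrophils had 7.36 CPM in Control, from 2 UMIs, and 74.5 CPM in AngII+HS, a log2 ratio of 3.34 with an interval from 1.48 to 6.39. Legumain was thus higher in AngII+HS in all 6 types, and the neutrophil ratio was the least certain. The AngII+HS neutrophil level was above the 26.1 CPM estimated for free RNA but below the 85.4 CPM of T and B cells.

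The secreted inhibitor *Cst3* (chr2:148713635-148717887) was the most abundant of the 10 genes in both libraries as a whole and in DCs, fibroblasts, VSMCs and VECs. Fibroblasts had 4984 CPM in Control and 6964 CPM in AngII+HS (log2 ratio 0.48), and DCs 4036 CPM and 4213 CPM (0.06, −0.05 to 0.18). Macrophages stood at 1276 CPM and 1279 CPM, a log2 ratio of 0.00 (−0.05 to 0.06). In VECs *Cst3* was lower in AngII+HS, 746 CPM after 1431 CPM (−0.94), and in VSMCs it was higher, 1476 CPM after 791 CPM (0.90). Single VEC clusters differed, with 2015 CPM in Control and 1010 CPM in AngII+HS in the *Ecrg4*-led cluster and 779 CPM and 809 CPM in the *Timp4*-led cluster. VEC clusters made up different shares of the libraries, and the part of such shares was not tested. Among clusters of AngII+HS, *Cst3* marked the cDC1-like cells (11344 CPM) against the cDC2-like cells (2364 CPM), and the macrophage clusters with the least of it were both *Arg1* macrophage-like clusters (543 CPM and 611 CPM) and the *Marco*-led cluster (570 CPM). Fibroblast clusters ran from 738 CPM in the Control *Pi16* fibroblast-like cluster to 20663 CPM in an AngII+HS cluster of shallow cells led by *Rbp4* and *Cst3* itself. The *Mmp13*- and *Saa3*-led fibroblast cluster, with 395 AngII+HS cells and no Control cell, had 1129 CPM.

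The cytosolic inhibitor *Cstb* (chr10:78261499-78263991) was distributed otherwise. It was highest in macrophages (361 CPM in Control and 1483 CPM in AngII+HS) and in neutrophils (254 CPM and 1264 CPM), with log2 ratios of 2.04 (1.94 to 2.14) and 2.32 (1.97 to 2.68). DCs had 82.5 CPM, from 13 UMIs, and 400 CPM, a log2 ratio of 2.28 (1.50 to 3.19). VECs had 49.2 CPM and 135 CPM (1.46), and fibroblasts 175 CPM and 272 CPM (0.64). Both *Arg1* macrophage-like clusters were above 2000 CPM, at 2195 CPM and 2334 CPM, and the cDC1-like cluster was at 156 CPM. Among macrophage clusters the 2 richest in *Cstb* were thus among the 3 poorest in *Cst3*.

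**Figure D2:**
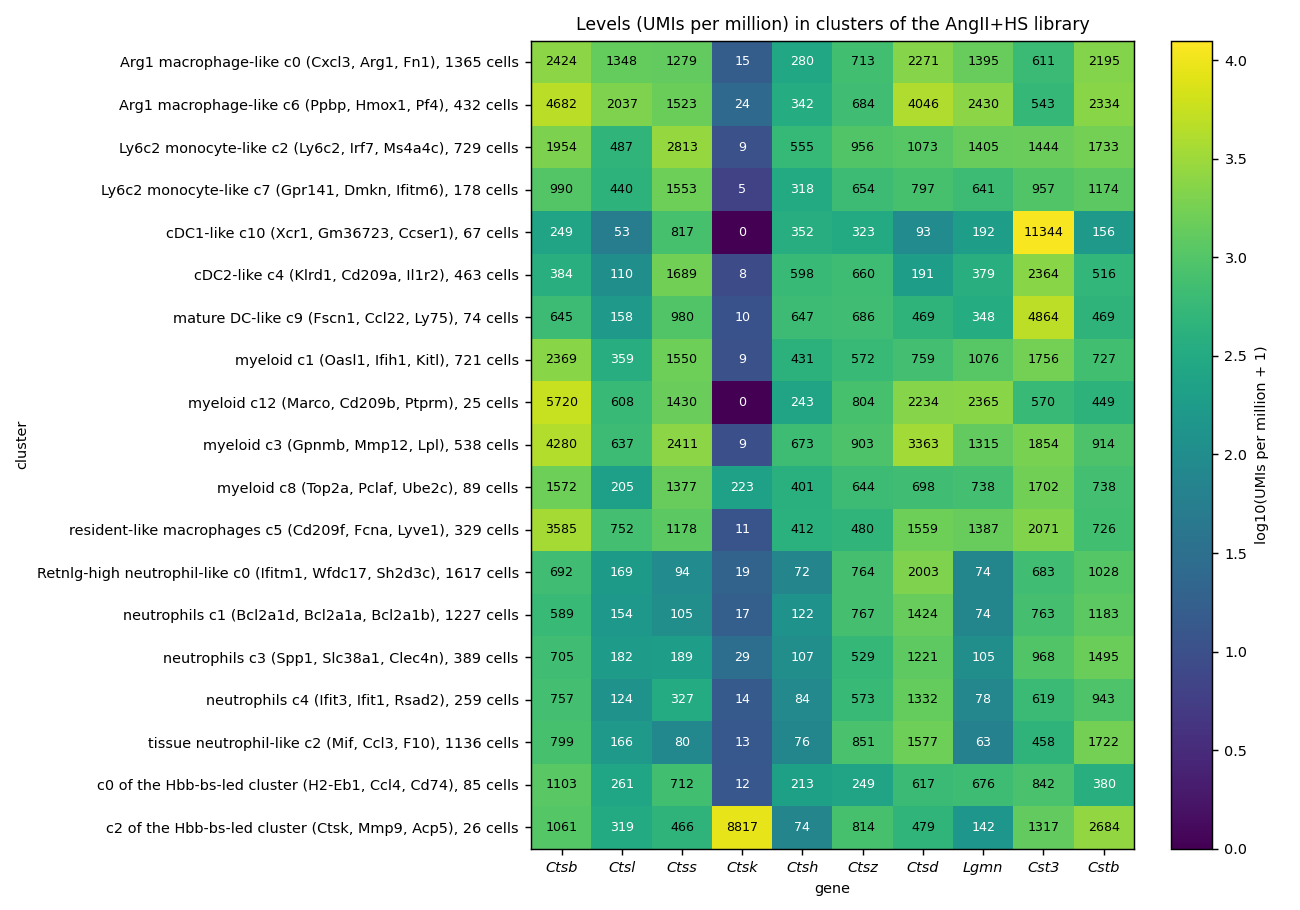
Levels of the 10 genes (CPM, printed in each cell, colour on a log10 scale after adding 1) in the AngII+HS clusters of myeloid cells and neutrophils and in clusters of the *Hbb-bs*-led group. The *Ppbp*-led *Arg1* macrophage-like cluster was high for *Ctsb* (4682), *Ctsd* (4046), *Ctsl* (2037), *Lgmn* (2430) and *Cstb* (2334), the cDC1-like cluster for *Cst3* (11344), and 26 cells of the *Hbb-bs*-led group for *Ctsk* (8817).

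The main question of the design was how these genes differed between the Control and the AngII+HS aorta within each cell type. In macrophages 7 genes passed 2-fold: *Ctsl*, *Ctss*, *Ctsk*, *Ctsz*, *Ctsd*, *Lgmn* and *Cstb*. *Ctsk* did so from 5 Control UMIs, to 21.3 CPM in AngII+HS against 12.2 CPM in T and B cells. The 3 richest cells of the *Top2a*- and *Pclaf*-led myeloid cluster held 176 *Ctsk* UMIs, against 424 in all AngII+HS macrophages. *Ctsb* and *Ctsh* were higher by less, and the sign of *Cst3* turned under 6 of 12 alternative settings. Of the 13860 genes with at least 20 UMIs in macrophages, 9.66% passed 2-fold in that direction. The median log2 ratio of the 10 genes was 1.54 and that of all genes −0.15. Summed over the 8 proteases, macrophages had 4522 CPM in Control and 9811 CPM in AngII+HS, a log2 ratio of 1.12 (1.09 to 1.15). Different clusters made up the macrophages of the libraries: 451 of 500 Control cells were in the *C1qa*-led cluster, while 2340 AngII+HS cells were there and 2071 in the *Arg1*-led cluster.

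In clusters present in both libraries the ratios were often smaller than in all macrophages, but not in each cluster or for each gene. In the resident-like macrophage cluster led by *Cd209f* and *Lyve1* (134 Control and 329 AngII+HS cells) 4 of 9 genes tested passed 2-fold, against 5.9% of its genes. These were *Ctsd* (584 CPM and 1559 CPM, log2 ratio 1.42), *Ctsl* (330 CPM and 752 CPM, 1.19), *Ctss* (526 CPM and 1178 CPM, 1.16) and *Cstb* (303 CPM and 726 CPM, 1.26). The lowest bound of their intervals was 0.94. *Ctsb* (2684 CPM and 3585 CPM) had 0.42 and *Cst3* (1799 CPM and 2071 CPM) 0.20. In the *Oasl1*- and *Ifih1*-led cluster (243 and 721 cells) *Ctss* had 1.96 (1.81 to 2.10), *Ctsd* 0.76 and *Ctsb* −0.06 (−0.12 to 0.01). In a *Ly6c2* monocyte-like cluster led by *Gpr141* (41 and 178 cells) *Lgmn* had the highest ratio, 1.89 (1.49 to 2.31), and *Ctss* had 1.36. In the *Gpnmb*-led cluster, which held 28 Control and 538 AngII+HS cells, *Ctsl* had 3.14 (2.29 to 4.14), and *Ctsd* and *Ctss* each had 2.41. These 3 ratios were larger than those of all macrophages (2.05, 2.02 and 1.99). *Ctss*, *Ctsl*, *Ctsd* and *Cstb* were therefore higher in AngII+HS in each of these 4 macrophage and monocyte clusters, and *Cst3* had ratios from 0.20 to 0.94 there although its macrophage total was level.

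In DCs 3 of 9 genes tested passed 2-fold in the AngII+HS direction after 0.5 UMI had been added to each count, *Ctss*, *Ctsl* and *Cstb*, against 16.8% of 8255 genes, and *Ctsz* (1.01 without the addition) fell just short. *Ctsl* passed from 0 Control UMIs, to 83.3 CPM in AngII+HS against 79.7 CPM in T and B cells. The cDC2-like cluster (31 and 463 cells) had *Ctss* at 665 CPM and 1689 CPM (log2 ratio 1.35) and *Ctsd* at 376 CPM and 191 CPM (−0.97, −1.39 to −0.53). In neutrophils 7 of 10 passed 2-fold, against 27.4% of 9985 genes, and 1 of them, *Ctsk*, did so through the added UMI, since Control had 0 *Ctsk* UMIs and the limit of 11.0 CPM is within 1.57-fold of the AngII+HS level. All 99 Control neutrophils lay in a single cluster led by *Ngp* and *Ly6g* that held 1 AngII+HS cell. The neutrophil ratios thus compare different clusters.

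In fibroblasts all 10 genes were higher in AngII+HS, though *Ctsz* was not with cells weighted equally (−0.04) or free RNA subtracted (−0.01). Of the 10, 3 passed 2-fold, *Ctss*, *Ctsk* and *Lgmn*, against 7.49% of 15883 genes. With free RNA subtracted, which left no *Ctss* value, 2 passed. The median log2 ratio of the 10 was 0.63 and that of all genes −0.15. The protease sum was 2347 CPM and 3294 CPM, a log2 ratio of 0.49. In VSMCs all 10 were higher and 6 passed 2-fold, *Ctss*, *Ctsk*, *Ctsl*, *Ctsd*, *Ctsh* and *Lgmn*, against 6.25% of 15546 genes. Only 3 passed when more cells were removed as doublets, when the libraries were not integrated or when free RNA was subtracted, and 8 when no doublets were removed. *Ctsk* in VSMCs was at 5.64 CPM in Control and 18.3 CPM in AngII+HS, against 2.14 CPM and 12.2 CPM in T and B cells. Its log2 ratio ran from 0.83 to 2.50 under the alternative settings. Summed fibroblast markers in VSMCs moved from 1569 CPM to 3856 CPM, and their part in this value was not tested. The VSMC protease sum was 922 CPM and 1765 CPM, a log2 ratio of 0.94. The 8 clusters of VSMCs and other mural cells with at least 20 cells in each library had log2 ratios of the sum from 0.46 to 1.06. The least of these ratios was in the *Pln*- and *S1pr3*-led cluster, where *Ctsd* had −0.16 (−0.56 to 0.22). In VECs 3 genes passed 2-fold upward, *Ctss*, *Ctsk* and *Cstb*, against 7.93% of 13153 genes, and 1 downward, *Ctsh*, against 5.93%. With no doublets removed 5 passed upward, and with free RNA subtracted 1. *Ctsk* in VECs was at 2.08 CPM in Control, from 9 UMIs, and 8.08 CPM in AngII+HS, below the 9.96 CPM estimated for free RNA there. *Cstb* in VECs, at 49.2 CPM and 135 CPM, was close to its level in T and B cells, 50.3 CPM and 140 CPM. Its AngII+HS level was above the 37.1 CPM estimated for free RNA. The VEC protease sum, 1464 CPM and 1682 CPM, had a log2 ratio of 0.20, which was 0.58 with no doublets removed and 0.0365 with free RNA subtracted.

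**Figure D3:**
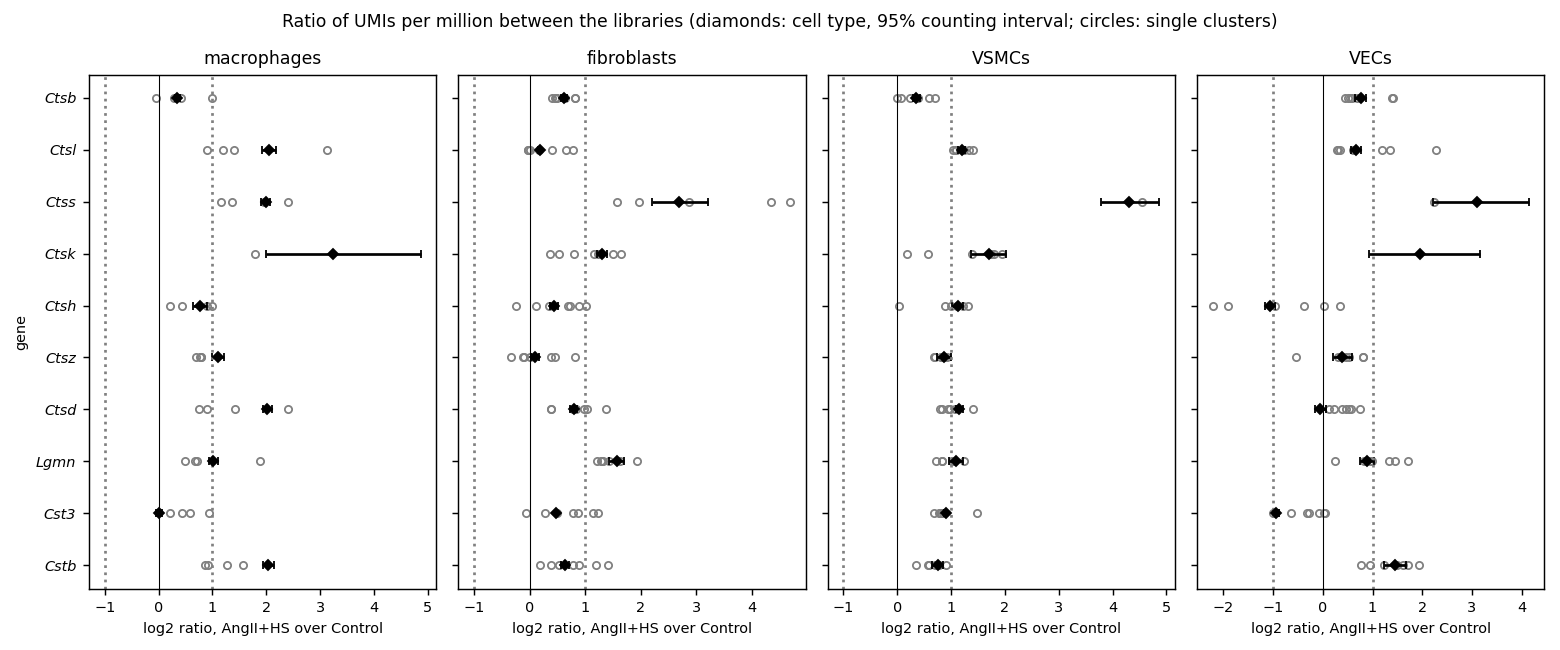
Log2 ratios of CPM, AngII+HS over Control, for the 10 genes in macrophages, fibroblasts, VSMCs and VECs (diamonds with 95% counting intervals) and in single clusters of each type with at least 20 UMIs of the gene (circles), with dotted lines at 2-fold. In macrophages most circles lie left of the diamonds for *Ctsl*, *Ctsd* and *Cstb*, and in VECs the *Ctsh* circles spread from −2.21 to 0.35.

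The balance of inhibitor to protease differed by cell type more than by library. The 7 cysteine proteases were all proteases here but *Ctsd*, and so included *Lgmn*. Per 100 of their UMIs, macrophages had 31.6 *Cst3* UMIs in Control and 16.3 in AngII+HS, and 8.93 and 18.9 *Cstb* UMIs. The secreted and the cytosolic inhibitor thus changed places in the macrophage total. The *Oasl1*-led, resident-like and *Gpnmb*-led clusters kept more *Cst3* than *Cstb* in both libraries, with 35.2 and 5.93 in Control and 26.5 and 9.30 in AngII+HS in the resident-like one. The *Gpr141*-led cluster did not, with 20.7 and 16.4, then 20.8 and 25.5. Both *Arg1* macrophage-like clusters, low in *Cst3*, held 0 and 1 Control cells, and the part of such shares was not tested. Fibroblasts held 239 and 245 *Cst3* UMIs per 100, VSMCs 109 and 111, and VECs 120 and 52.4. Only VECs among these stromal types moved by over 2-fold, and VEC clusters made up different shares of the libraries. The cDC1-like cluster had 571 *Cst3* UMIs per 100 cysteine protease UMIs, and the *Ppbp*-led *Arg1* macrophage-like cluster 4.63. Neutrophils had 33.3 *Cstb* UMIs per 100 in Control and 66.2 in AngII+HS. These ratios are of RNA molecules and not of protein.

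A group of 26 AngII+HS cells stood apart by *Ctsk*. It was found when the low-depth *Hbb-bs*-led cluster was split, after its *Ctsk* values had been seen, and it held no Control cell. Its cells carried 3348 *Ctsk* UMIs, 8817 CPM (8521 to 9121), which is 24.6% of the 13615 *Ctsk* UMIs of the library from 0.132% of its cells. Of the 26 cells 17 had a *Ctsk* UMI, with a median of 38 and a maximum of 528 over all 26, against 2.72% of AngII+HS T cells (median depth 2308 UMIs) and B cells (1984 UMIs). The median depth of the 26 cells was 14368.5 UMIs per cell. Genes leading it included *Ctsk*, *Mmp9*, *Acp5*, *Atp6v0d2*, *Ckb*, *Slc9b2*, *Ocstamp*, *Bbln* and *Oscar*. *Acp5*, the tartrate-resistant acid phosphatase, was at 6479 CPM against 138 CPM in AngII+HS macrophages, and *Atp6v0d2*, a proton pump subunit, at 1167 CPM against 20.1 CPM. *Ocstamp* and *Dcstamp*, which act in cell fusion, were at 184 CPM and 195 CPM, and the receptor gene *Oscar* was at 182 CPM with 1 UMI in all 4524 macrophages. *Csf1r* (532 CPM) and *Cd68* (708 CPM) were present, *C1qa* was at 55.3 CPM against 1669 CPM in macrophages, *Col1a1* at 73.7 CPM and *Hbb-bs* at 13.2 CPM. *Ctsb* (1061 CPM) and *Ctsd* (479 CPM) were below their levels in AngII+HS macrophages, and *Cstb* (2684 CPM) was above. No marker list for such cells had been drawn up, so the cluster is left without a name, and its cells could not be assigned to a mouse.

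Cells with at least 20 *Ctsk* UMIs numbered 0 in Control and 25 in AngII+HS. Of these, 16 lay in the 26-cell cluster, 7 in fibroblasts and 2 in macrophages, and 12 more were among the 4826 cells removed as predicted doublets. The highest *Ctsk* count of a fibroblast was 27 UMIs in AngII+HS and 19 in Control. The *Top2a*- and *Pclaf*-led myeloid cluster held 198 *Ctsk* UMIs, 176 of them in 3 cells, against 424 in all AngII+HS macrophages. Without the 26 cells the library level of *Ctsk* was 128 CPM in AngII+HS against 22.3 CPM in Control, a log2 ratio of 2.52, after 2.92 with them.

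**Figure D4:**
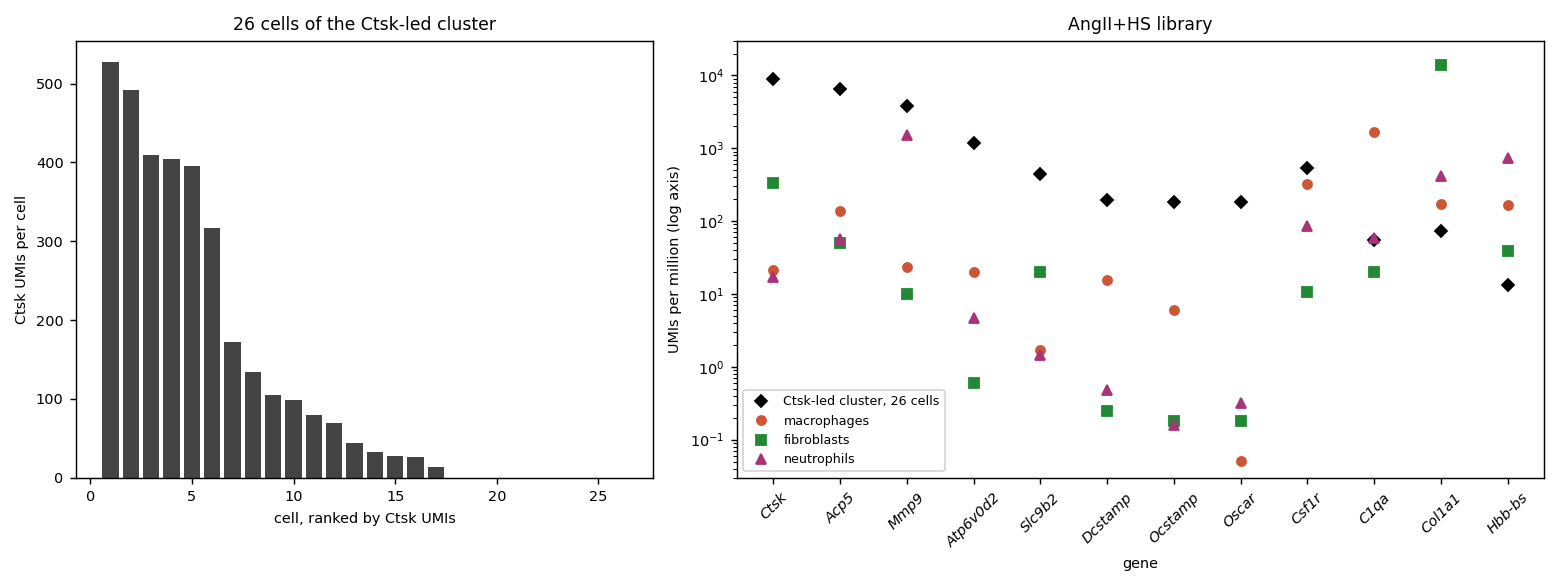
Left, *Ctsk* UMIs in each of the 26 cells of the *Ctsk*-led cluster of the AngII+HS library, ranked, with 17 cells above 0 and the highest at 528. Right, levels of 12 genes (CPM, log axis) in this cluster and in AngII+HS macrophages, fibroblasts and neutrophils, where *Ctsk*, *Acp5*, *Mmp9*, *Atp6v0d2*, *Slc9b2*, *Dcstamp*, *Ocstamp* and *Oscar* were highest in the 26 cells and *C1qa* and *Col1a1* were not.

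At the level of whole libraries each gene had a higher CPM in AngII+HS, and for most genes another cell type supplied the largest part. VSMCs gave 60.4% of *Ctsb* UMIs in Control and 2.77% in AngII+HS, while the macrophage part went from 17.5% to 64.6%. For *Ctsd* the VSMC part went from 63.6% to 3.77% and the macrophage part from 6.54% to 56.8%, with 15.0% from neutrophils. *Ctss* came mainly from macrophages in both libraries, 75.6% and 83.7%. Fibroblasts supplied the largest part of *Cst3* in both libraries, 47.2% and 76.3%. For *Ctsl* the largest part came from VSMCs in Control (47.7%, with 41.9% from fibroblasts) and from fibroblasts in AngII+HS (57.6%). The VSMC share of cells was 49.3% in Control and 3.28% in AngII+HS, and shares of cells depend on dissociation and on depth as well as on the tissue. When the Control levels of each type were weighted by the AngII+HS shares of UMIs, the log2 ratio of *Ctss* (4.91) split into 3.06 from shares and 1.85 from levels within types. That of *Ctsb* (1.54) split into 1.07 and 0.47, and that of *Cst3* (1.22) into 0.83 and 0.39. For *Ctsd* (1.98, as 0.74 and 1.24) and *Cstb* (2.58, as 0.88 and 1.70) the part from levels was the larger, as it was by little for *Ctsl* (1.15, as 0.54 and 0.61). These levels are of whole types, so other clusters within a type count as a change of level. Both *Arg1* macrophage-like clusters, with 0 and 1 Control cells, had 2271 CPM and 4046 CPM of *Ctsd* and 2195 CPM and 2334 CPM of *Cstb* in AngII+HS. The part of such clusters was not tested. *Ctsk* (2.92) split into 1.15 and 1.77. There the 26-cell cluster, which held no Control cell, counted as a change of level, because its *Hbb-bs*-led type held 39 Control cells. Which part was the larger for *Ctsk* is therefore not known, and without the 26 cells its log2 ratio was 2.52.

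**Figure D5:**
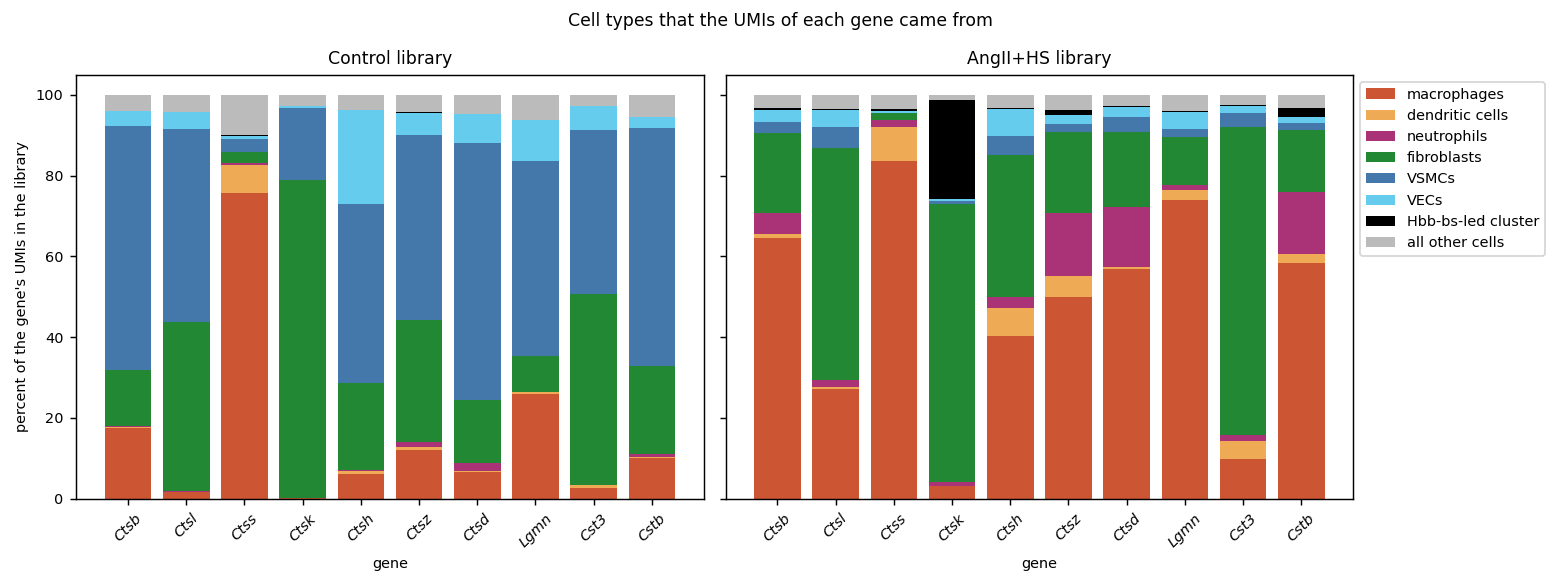
Percent of each gene's UMIs (vertical axis) that came from each cell type in the Control library (left) and the AngII+HS library (right). Blue VSMC segments are the largest on the left for all genes but *Ctss*, *Ctsk* and *Cst3* and are thin on the right, where red macrophage segments reach 64.6% for *Ctsb* and 83.7% for *Ctss*, and the black segment of *Ctsk* is the *Hbb-bs*-led cluster.

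Other genes of the pathway were read by list, beside the 9.66% of all macrophage genes that passed 2-fold upward and the 18.3% that passed downward. Of 24 lysosomal hydrolases and membrane proteins measured in macrophages, 4 passed 2-fold upward and 0 downward, with a median log2 ratio of 0.25 against −0.15 for all genes. Among those upward were *Psap*, the precursor of the saposins (1118 CPM and 2575 CPM), and *Gusb* (1.12), while *Lamp1* had 0.21 and *Lamp2* −0.38. Of 12 genes of sorting and acidification, 2 passed 2-fold upward, the mannose 6-phosphate receptor *Igf2r* (10.8 CPM and 77.6 CPM, 2.84) and *Atp6v0d2* (2.26 CPM, from 5 UMIs, and 20.1 CPM, 3.15). The other receptor, *M6pr*, had 0.52 (192 CPM and 276 CPM). Of 4 regulators of lysosomal genes, *Tfec* had 1.39 (1.08 to 1.72), and *Tfeb* (−0.39), *Tfe3* (−0.31) and *Mitf* (−0.21) were slightly lower. Among 6 other cathepsins tested, *Ctsg* passed upward (3.07, from 2 Control UMIs, 1.19 to 6.13) and *Ctsf* downward (−1.83), and *Ctsc*, the activator of neutrophil proteases, had −0.16. None of 5 genes of class II loading passed 2-fold in macrophages, where *Cd74* had 3097 CPM and 3936 CPM (0.35), although *Ctss*, which processes it, had 1.99. In fibroblasts 4 of these 5 passed 2-fold upward, against 7.49% of all genes, in VSMCs 4, against 6.25%, and in VECs 5, against 7.93%, with *Cd74* at 49.9 CPM and 432 CPM in VECs. In neutrophils all 5 passed, against 27.4% of all genes, and in DCs 0, against 16.8%. Neutrophils of the libraries lay in different clusters. Their summed markers moved from 394 CPM to 442 CPM for macrophages and from 169 CPM to 1151 CPM for fibroblasts. The macrophage markers that moved with *Ctss* in the 3 stromal types (20.6 CPM to 81.9 CPM in fibroblasts) moved with the class II genes there too. The part of such markers in the values was not tested. Of 6 matrix genes 3 passed 2-fold upward in macrophages, *Fn1* (361 CPM and 1881 CPM, 2.38), *Col1a1* and *Col3a1*. The summed level of 6 fibroblast markers in macrophages, *Col1a1* and *Col3a1* among them, moved from 111 CPM to 475 CPM, and its part in these values was not tested. Of 13 further inhibitor genes in the matrices 5 had enough UMIs in macrophages and all 5 passed upward, *Csta2*, *Stfa2l1* and *Cstdc4* from 0 Control UMIs and *Cst7* from 1 (log2 ratio 2.32, −0.23 to 7.65). The fifth was *Timp1*, which blocks metalloproteinases and is no cystatin (1.36 CPM, from 3 UMIs, and 82.9 CPM). *Cstdc4* was also among the genes leading the main neutrophil cluster. The summed level of 7 neutrophil markers in macrophages was 463 CPM in Control and 428 CPM in AngII+HS, and the part of neutrophil RNA was not tested. In neutrophils 8 genes of the inhibitor list had enough UMIs and 4 passed upward, against 27.4% of all genes: *Csta2*, *Csta3*, *Stfa2* and *Timp1*, each from 0 or 1 Control UMI. The other 4, with at least 8 Control UMIs, did not pass. Of these *Cstdc4* had 456 CPM and 759 CPM (log2 ratio 0.73), *Stfa2l1* 427 CPM and 533 CPM (0.32), *Stfa1* 81.0 CPM and 63.5 CPM (−0.35), and *Cstdc5* 29.4 CPM and 29.8 CPM (0.02). Of the 24 lysosomal genes, 8 passed 2-fold upward in neutrophils, where 27.4% of all genes did, and 3 passed upward and 2 downward in DCs, where 16.8% and 14.2% did. In VSMCs 3 of them passed upward (median log2 ratio 0.55), in fibroblasts 1 (0.34) and in VECs 1 (0.14), and none downward.

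Across 23 profiles, each 1 named type in 1 library, the genes most like each of the 10 were found among 5634 genes. The measure was the Pearson correlation of log levels, as a description, since profiles share libraries and depth. Among the profiles, that of the AngII+HS *Hbb-bs*-led group mixed 85 cells led by *H2-Eb1* and *Ccl4* with the 26 *Ctsk*-led cells. It had the highest *Ctsk* (7217 CPM) and *Cstb* (2265 CPM) of all profiles, and its part in the correlations was not tested. *Ctsb* was closest to *Grn*, a lysosomal glycoprotein precursor (r = 0.92), and *Ctsl* to the tetraspanin gene *Cd63* (0.87). *Cstb* and *Ctsz* were both closest to *Atp6v0c*, a subunit of the lysosomal proton pump (0.93 and 0.88). *Ctss* was closest to *Ms4a6c* (0.92), *Pld4* and *Cd86*, and *Ctsk* to *Bdh2* (0.93), *Mst1r* and *Slc9b2*. Among the 10 themselves, *Ctsb* and *Cstb* were alike (0.81) and *Ctsb* and *Ctsd* (0.77), whereas *Ctss* had 0.06 with its neighbour *Ctsk* and −0.35 with *Ctsl*.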

How the data were processed

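The authors prepared 10× Genomics 3′ libraries and deposited 1 matrix of UMI counts per condition, which were used as deposited. Their methods name Cell Ranger 7.0 and GRCm39, the matrix headers Cell Ranger 8.0.1 and the submitters' notes mm10. Here 98.48% of the gene identifiers matched the GRCm39 annotation used for coordinates. The cell filter asked for 500 or more UMIs, 200 or more genes and a mitochondrial share below 20%. Scrublet scores from scanpy 1.11.5 ranked the cells, and 0.8% per 1000 cells were removed as doublets (1019 Control and 4826 AngII+HS cells). The libraries were integrated and clustered with Seurat 5.3.0 (2000 variable genes without the 10 genes, 30 components, resolution 0.8). Clusters were named from marker lists, and sub-clusters (20 components, resolution 0.6) that missed the naming rule keep their leading genes. UMIs were summed per type and library, with exact Poisson intervals for CPM and conditional binomial intervals for ratios, both at 95%. Only the ratio intervals were tried on simulated data. Those counts were drawn with counting error alone, so the trial cannot show how the intervals hold for genes uneven between cells. Ratios were read for genes with at least 20 UMIs in a type, and called past 2-fold. The genes, pathway lists (other cathepsins, other cystatins, lysosomal genes, sorting and pH, regulators, class II loading, matrix genes) and markers were chosen with earlier results of these data known. The stricter naming of sub-clusters and the split of the VECs and of the *Hbb-bs*-led cluster were chosen after values had been seen. Genes named were the 10 members, their 3 most alike genes and list members past 2-fold in macrophages, with a few others named after values had been seen. Some genes that met these rules are not reported here.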

Additional observations from a re-analysis of the deposited data

Results flagged for a closer look

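*Ctsh*, summed over all cells of a type, passed 2-fold in opposite directions in the muscle and the endothelium of the aorta. Its log2 ratio of AngII+HS over Control was 1.12 in VSMCs (75.4 CPM and 164 CPM) and −1.06 in VECs (484 CPM and 233 CPM). With 1 library per condition the difference between these ratios was not tested. Under the alternatives they ran from 0.88 to 1.46 in VSMCs and from −1.19 to −0.91 in VECs, so some fell short of 2-fold. Single VEC clusters differed, with 240 CPM and 51.8 CPM in the *Mctp1*-led cluster and 478 CPM and 608 CPM in the *Gadd45b*-led cluster. The *Klk10*-led cluster, rich in *Ctsh*, held 155 Control and 55 AngII+HS cells, and the part of such shares was not tested.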

How the results depend on the processing

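Over the 10 genes in macrophages, fibroblasts, VSMCs and VECs, 37 of 40 log2 ratios kept their sign under each alternative that gave a value (up to 12), and so did all 20 past 2-fold. With free RNA subtracted 4 of the 40 gave none, *Ctss* in fibroblasts, VSMCs and VECs and *Ctsk* in VECs. Each of these 4 was past 2-fold and had an AngII+HS level below the free RNA estimate, so these calls did not stand there. The exceptions in sign were *Cst3* in macrophages (−0.20 to 0.16), *Ctsd* in VECs (−0.29 to 0.45) and *Ctsz* in fibroblasts (−0.04 to 0.36). The log2 ratio of the summed proteases was 1.12 in macrophages, 0.49 in fibroblasts, 0.94 in VSMCs and 0.20 in VECs, and in the same order it was 1.02, 0.66, 1.001 and 0.58 with no doublets removed and 1.08, 0.39, 0.97 and 0.15 with equal weight per cell. In macrophages, fibroblasts and VSMCs it was 1.17, 0.55 and 0.77 with 2 times the number of doublets removed and 1.28, 0.63 and 0.995 with TMM factors, which shifted all ratios of a type by 0.16, 0.14, 0.06 and, in VECs, −0.04. With free RNA subtracted it was 0.43 in fibroblasts, 0.81 in VSMCs and 0.0365 in VECs. At resolution 0.4 it was 1.17 in macrophages and 0.90 in VSMCs, at resolution 1.2 it was 0.53 in fibroblasts and 0.90 in VSMCs, and in VSMCs it was 0.80 without integration and 0.90 with the 10 genes among the clustering genes. The cause of these moves was not tested. A stricter cell filter, scaling without mitochondrial genes and leaving out clusters led by markers of another type, the last chosen after the data were seen, moved none of these sums beyond its counting interval. Genes past 2-fold upward numbered 6 to 7 in macrophages, 2 to 4 in fibroblasts, 3 to 8 in VSMCs and 1 to 5 in VECs. *Ctsk* in macrophages ran from 2.89 to 7.08 and *Cst3* in VECs from −1.27 to −0.22. Shares of cells with a UMI moved past their interval in 112 of 120 cases when each cell was thinned to 1000 UMIs. Fewer UMIs per cell lower such shares in deep cells, so this count does not bear on the differences between libraries.

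No paired analysis was possible because each condition is 1 library. The spread between mice, the few Control neutrophils and DCs, and levels near free RNA limit these values, as said beside them.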
